A study of Mus musculus with 6 samples.

Results

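The 34 genes described here encode the receptors through which cortical neurons sense glutamate, and the auxiliary proteins that travel with those receptors. They comprise 4 AMPA receptor subunits (Gria1 to Gria4), 5 kainate receptor subunits (Grik1 to Grik5), 7 NMDA receptor subunits (Grin1, Grin2a to Grin2d, Grin3a and Grin3b), the delta receptor Grid1 and 7 metabotropic receptors (Grm2 to Grm8). The auxiliary proteins are 6 transmembrane AMPA receptor regulatory proteins or TARPs (Cacng2, Cacng3, Cacng4, Cacng5, Cacng7 and Cacng8), Neto1 and Neto2, and the cornichons Cnih2 and Cnih3. All members were chosen by gene symbol, and all 34 were found among the 17348 genes of the deposited table.

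The libraries came from cortices of mouse embryos at embryonic day E18.5, 3 from Ybx1 conditional knockout (cKO) embryos and 3 from control littermates on a C57BL/6J background. The cKO embryos carried floxed Ybx1 alleles with Nestin-Cre (Nestin-Cre, Ybx1 fl/fl), a driver active in neural progenitors and their progeny, so blood vessels and microglia should keep the gene. Control embryos are labelled WT, while the study's mouse crosses designate Ybx1 fl/fl animals without Cre as controls. Ybx1 encodes a cold-shock domain protein that binds RNA, including methylated cytosines, and the study asked what its loss does to the developing cortex.

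Glutamate receptors fall into channels and G protein-coupled receptors. AMPA receptors carry fast excitation, NMDA receptors need glycine and depolarization as well as glutamate and pass calcium, and kainate receptors modulate both release and excitability. Before birth most cortical synapses are immature, and NMDA receptors at this stage are known to be rich in GluN2B, encoded by Grin2b, with GluN2A from Grin2a following after birth. TARPs and cornichons help AMPA receptors leave the endoplasmic reticulum and set their gating, and Neto proteins modulate the gating of kainate receptors.

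Library totals ranged from 15091951 to 16885451 estimated counts. As a check of the labels, counts of Ybx1 ranged from 13950 to 22152 across controls and from 387 to 394 across cKO embryos. Neuronal RNA was abundant in both groups, since the summed level of 5 neuronal genes (Tubb3, Map2, Rbfox3, Syt1 and Snap25) was 3224 to 3480 TPM in control and 3189 to 3419 TPM in cKO libraries. TPM, a measure of transcript abundance scaled by transcript length and to a fixed sum per library, allows levels of different genes to be compared within a library. Transcripts of the choroid plexus, given by 4 marker genes, summed to at most 0.5 TPM in any library. Those of 5 erythroid genes summed to 7578 to 8402 TPM in control and 7997 to 9440 TPM in cKO libraries. The Y-linked genes Eif2s3y, Ddx3y and Kdm5d had at least 1422, 714 and 856 counts in every control library and at most 1, 1 and 0 counts in the cKO libraries, so Ybx1 genotype and the presence of a Y chromosome cannot be told apart in any comparison here. Control replicate 2 stood apart from the other libraries, and the fold changes it moved most are also given without it.

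No member of the set passed the test between cKO and control cortex. Of the 34 members, 33 passed edgeR's filter on low counts and 0 of them had an adjusted p-value under 0.05 by edgeR or by DESeq2, where 10 of all 13570 genes tested (0.0737%) did by edgeR. Grm6, the receptor of retinal ON bipolar cells, was the member that did not pass the filter, with 0, 2 and 2 counts in control and 2, 0 and 0 counts in cKO libraries. At an unadjusted p under 0.05, Gria3, Gria4 and Grik4 were higher in cKO cortex and Grin1 was lower. These are 3 of 33 members on the higher side and 1 on the lower side, against 3.14% and 3.49% of all genes tested. All values of 1 group lay outside the range of the other for 5 members on the higher side (Gria3, Gria4, Grik4, Cacng5 and Cnih3) and for Grin1 on the lower side, against 7.35% and 6.93% of all genes tested. The median log2 fold change was 0.10 over the members, which ran from -0.48 to 0.45, with 22 of 33 above 0. Over all genes tested the median was 0.003, with 6860 of 13570 above 0. In bulk tissue, fewer cells of a type and less RNA per cell cannot be told apart, which holds for every level given here.

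Leaving out single libraries changed which members stood below an unadjusted p of 0.05. Without cKO replicate 1 or without cKO replicate 3 only Grin1 remained, and the median over the members without cKO replicate 1 was -0.009, with 16 of 33 above 0. Without control replicate 3 there were 9 such members and without control replicate 2 there were 6. Grin1 was among them in all 17 alternative fits.

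**Figure D1:**
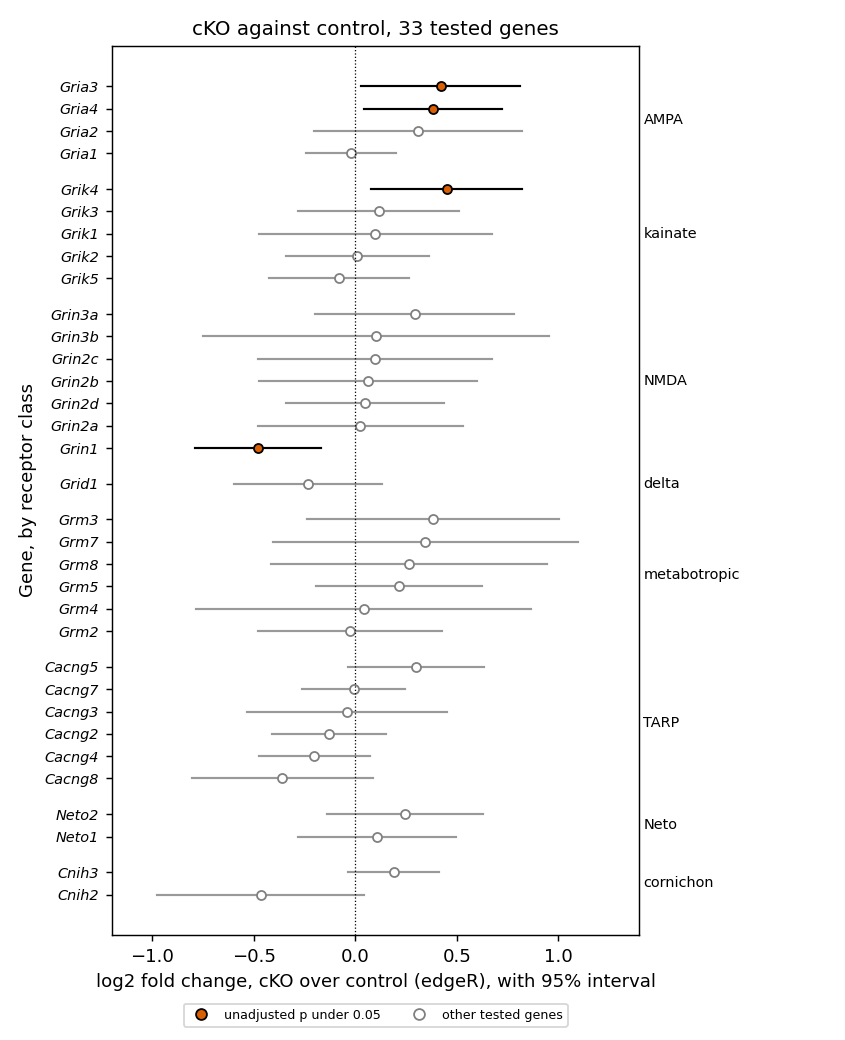
Log2 fold change of cKO over control for the 33 tested members from edgeR (horizontal axis), by receptor class, with 95% intervals as bars from 3 libraries a group. Filled points mark the 4 members with an unadjusted p under 0.05, of which Grin1 (-0.48) lies left of 0 and Grik4 (0.45), Gria3 (0.42) and Gria4 (0.38) lie right of it.

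The proximal promoters of Gria2, Gria4, Grik4 and Grin1 are shown because Gria2 was the most abundant member and the others were 3 of the 4 members with the smallest unadjusted p. Each window runs from 250 bases before to 30 bases after a RefSeq transcript start on GRCm38.p6, and all 4 lie on the minus strand. Capitals mark the GC box, searched as GGGCGG or CCGCCC, and the CCAAT box, searched as CCAAT or ATTGG. The inverted CCAAT box is the sequence for which Y-box proteins were named.
Gria2, chr3:80802806-80803085: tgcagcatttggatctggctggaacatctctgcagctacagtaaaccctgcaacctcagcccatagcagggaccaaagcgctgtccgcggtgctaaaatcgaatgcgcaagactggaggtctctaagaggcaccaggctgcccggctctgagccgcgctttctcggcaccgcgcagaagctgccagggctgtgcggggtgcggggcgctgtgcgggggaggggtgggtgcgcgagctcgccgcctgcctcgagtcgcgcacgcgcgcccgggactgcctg
Gria4, chr9:4796205-4796484: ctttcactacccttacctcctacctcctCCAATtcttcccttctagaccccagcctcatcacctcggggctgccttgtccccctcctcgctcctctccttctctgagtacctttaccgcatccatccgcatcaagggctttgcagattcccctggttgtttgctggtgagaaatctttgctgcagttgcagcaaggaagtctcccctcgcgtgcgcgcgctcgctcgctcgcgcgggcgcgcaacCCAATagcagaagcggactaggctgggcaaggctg
Grik4, chr9:42944342-42944621: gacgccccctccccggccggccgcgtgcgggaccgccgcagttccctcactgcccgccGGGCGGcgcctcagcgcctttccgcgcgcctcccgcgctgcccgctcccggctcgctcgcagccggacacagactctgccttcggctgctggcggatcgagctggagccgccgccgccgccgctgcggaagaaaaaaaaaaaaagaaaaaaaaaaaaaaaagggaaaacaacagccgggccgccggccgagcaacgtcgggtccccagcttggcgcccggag
Grin1, chr2:25319158-25319437: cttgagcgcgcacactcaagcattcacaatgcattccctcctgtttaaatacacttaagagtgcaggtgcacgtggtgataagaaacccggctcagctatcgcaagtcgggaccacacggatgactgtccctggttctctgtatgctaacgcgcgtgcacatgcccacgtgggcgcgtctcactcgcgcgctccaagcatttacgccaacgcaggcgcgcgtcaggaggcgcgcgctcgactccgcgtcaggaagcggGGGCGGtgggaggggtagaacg
The window of Gria2 held neither motif, that of Gria4 held 2 CCAAT boxes, and those of Grik4 and Grin1 held 1 GC box each. The windows of Gria4 and Grin1 span the annotated start of the gene, and those of Gria2 and Grik4 lie within the annotated gene span.

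RefSeq promoter entries were matched for 23 members with 28 windows. A GC box was present in 15 of the 28 windows, against 34.7% of all 32851 windows of the same length, and in all it was found in 14 members, including Grm2, Cnih2 and Grik3. A CCAAT box was present in 9 windows of 8 members, against 36.1% of all windows. A TATA box, searched as TATAAA or TTTATA, was present in the single window of Grin3b, against 13.1% of all windows. Both strands were searched and matches could overlap. The member windows had a median GC content of 62.9%, beside 52.5% for all windows. These matches describe the letters in the window and say nothing of binding. Gria1, Gria3, Grik1, Grin2a, Grin2b, Grin3a, Grid1, Grm4, Grm5, Cacng4 and Neto1 had no entry.

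To compare the receptor classes, TPM values were summed within each class and library. AMPA subunits had the highest mean of any class, with a sum of 477 ± 187 TPM in control (SD, n = 3) and 636 ± 16.6 TPM in cKO cortex (SD, n = 3). The 3 control sums were 486.5, 285.1 and 659.3 TPM and the cKO sums were 628.2, 625.5 and 655.4 TPM, so the cKO libraries lay within the control range. Control replicate 2 had the lowest sum of the 6 libraries and control replicate 3 the highest. In control replicate 2 the cornichons, at 425.8 TPM, exceeded the AMPA subunits. In that library the median log2 deviation from the mean of all libraries was 0.397 for the shortest of 10 equal length groups of tested genes, which holds Cnih2. It was -0.447 for the longest group, which holds Gria2. The part of this length trend in the order of the classes was not tested. Cornichons followed with 346 ± 78.7 and 300 ± 23.4 TPM, and TARPs with 272 ± 27.7 and 273 ± 18.1 TPM in control and cKO cortex (SD, n = 3 each). Kainate subunits summed to 229 ± 5.19 TPM in control and 249 ± 10.5 TPM in cKO cortex (SD, n = 3 each), with control sums of 225.3 to 234.8 TPM and cKO sums of 241.7 to 260.7 TPM that did not overlap. On counts the groups overlapped for 4 of the 5 kainate genes, and on the log2(TPM + 1) scale the median of all genes tested was itself 0.141 higher in cKO cortex. The Neto proteins summed to 125 ± 37.0 and 158 ± 14.3 TPM and the metabotropic receptors to 58.0 ± 10.2 and 71.1 ± 12.1 TPM. The NMDA subunits summed to only 79.4 ± 14.1 and 80.5 ± 2.02 TPM, and Grid1, a delta receptor that binds cerebellins rather than acting as a glutamate-gated channel, stood at 7.78 ± 1.27 and 7.37 ± 0.80 TPM (SD, n = 3 each). The 34 members together summed to 1594 ± 171 TPM in control and 1775 ± 25.8 TPM in cKO cortex (SD, n = 3 each). Control sums were 1399 to 1719 TPM and cKO sums 1755 to 1804 TPM. These totals did not overlap, and here too the median of all genes tested was 0.141 higher on the log2(TPM + 1) scale.

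**Figure D2:**
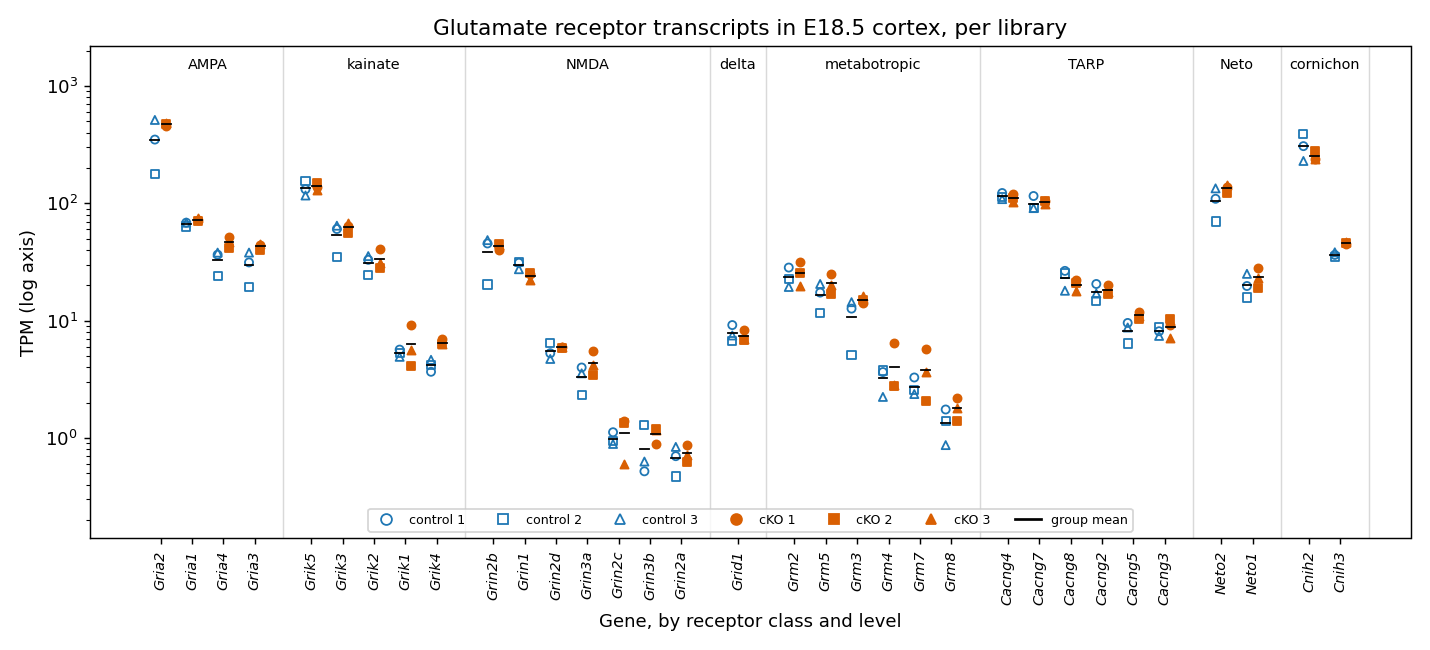
TPM (log axis) of the 33 tested members in each of the 6 libraries, grouped by receptor class and ordered by level within a class. Open blue symbols are control libraries, filled orange symbols cKO libraries, and black bars group means. Gria2 is the highest member at 178.39 to 514.66 TPM in control libraries, and control replicate 2 (open squares) gives the lowest value of Gria2, Grin2b and Grm3.

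The median log2 fold change of a class, taken minus that of all genes tested, was 0.343 for AMPA, 0.238 for metabotropic, 0.174 for Neto, 0.095 for kainate and 0.059 for NMDA genes, and it was -0.087 for TARPs and -0.142 for cornichons. These medians were not tested. Each of them moved by over 1.5 times when 1 library was left out. Without control replicate 2 the AMPA value was 0.160, the Neto value 0.028 and the cornichon value 0.023, and without control replicate 3 they were 0.519, 0.319 and -0.267. Without cKO replicate 1 the metabotropic value was 0.012, the kainate value -0.065 and the Neto value 0.099. The metabotropic value was 0.145 without control replicate 2 and 0.119 without control replicate 3. The TARP value was -0.057 without control replicate 1, -0.182 without control replicate 3, -0.135 without cKO replicate 2 and -0.042 without cKO replicate 3. The NMDA value was 0.094 without control replicate 3 and 0.020 without cKO replicate 2, and the kainate value was 0.178 without cKO replicate 2 and 0.058 without cKO replicate 3. On the scale of log2(TPM + 1) the median of all genes itself was 0.141, and the NMDA value relative to it was -0.036.

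Among AMPA subunits, Gria2 made up 70.9% ± 7.80 of the summed TPM in control and 74.4% ± 1.21 in cKO cortex (SD, n = 3 each). Gria2 encodes GluA2, whose edited form keeps AMPA receptors nearly impermeable to calcium. Its level was 350.08, 178.39 and 514.66 TPM in the control libraries and 459.87, 472.98 and 487.93 TPM in the cKO libraries. Control replicates spread more widely than the groups differed, and the cKO values fell inside the control range (log2 fold change 0.31, 95% interval -0.20 to 0.82, edgeR adjusted p = 0.854). For Gria2 it was 0.09 without control replicate 2, its lowest library, and 0.62 without control replicate 3, its highest (edgeR adjusted p = 0.840 and 0.218). Gria1, the subunit best known for activity-dependent delivery to synapses, averaged 66.9 ± 2.89 TPM in control and 72.8 ± 2.82 TPM in cKO cortex (SD, n = 3 each). Its fold change was close to 0 on counts (log2 fold change -0.02, 95% interval -0.24 to 0.20). On the log2(TPM + 1) scale it was 0.12, where the median of all genes tested was 0.141. The ratio of Gria2 to Gria1 TPM was 5.14 ± 2.35 in control and 6.51 ± 0.192 in cKO cortex (SD, n = 3 each), with 2.809 in control replicate 2 as the lowest value.

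Gria3 and Gria4 were the AMPA subunits on the higher side. Gria3, on chromosome X (chrX:41400819-41678601), encodes GluA3 and had 70.0, 49.0 and 81.7 CPM in control libraries and 91.2, 84.0 and 93.4 CPM in cKO libraries (CPM, the count divided by the TMM-scaled library total). All 3 cKO values lay above all control values, the nearest being 84.0 against 81.7 CPM. The log2 fold change of Gria3 was 0.42 with a standard error of 0.17, and edgeR's quasi-likelihood test gave an unadjusted p of 0.0382 and an adjusted p of 0.711. Because Y-linked transcripts separated the groups, the part of embryo sex in the value of this X-linked gene was not tested. Gria4 (chr9:4417893-4796234), whose product GluA4 is prominent early in development and in interneurons, had 75.7, 56.0 and 77.4 CPM in control and 101.9, 80.8 and 89.7 CPM in cKO libraries. The groups again did not overlap, and the log2 fold change of Gria4 was 0.38 with a standard error of 0.15 (edgeR unadjusted p = 0.0316, adjusted p = 0.673). For 3 libraries against 3, the exact two-sided permutation test of either gene gave its smallest possible p of 0.1. Control replicate 2 was the lowest library for both genes, and without it their log2 fold changes were 0.24 for Gria3 and 0.25 for Gria4.

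Among kainate receptor genes, Grik5 and Grik3 predominated. Grik5, whose product GluK5 reaches the cell surface only together with GluK1 to GluK3, accounted for 59.0% ± 9.25 of the class in control and 56.2% ± 4.25 in cKO cortex (SD, n = 3 each). Its level was 131.91, 156.33 and 116.74 TPM in control and 139.10, 148.84 and 131.05 TPM in cKO libraries, overlapping throughout (log2 fold change -0.08, 95% interval -0.42 to 0.27). Grik3 made up 23.3% ± 6.89 and 25.3% ± 2.48 of the class, and Grik2, the gene of the widespread subunit GluK2, 13.6% ± 2.42 and 13.3% ± 2.09. Grik1 was low at 5.30 ± 0.375 TPM in control, and its cKO mean of 6.35 ± 2.65 TPM rested on cKO replicate 1 with 9.27 TPM. Without that library its log2 fold change of 0.10 became -0.19.

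Grik4, the gene of the other high-affinity subunit GluK4, was the kainate member with the smallest p. Its values were 6.02, 8.02 and 7.54 CPM in control and 10.3, 9.38 and 9.83 CPM in cKO libraries, with every cKO library above every control library. The log2 fold change of Grik4 was 0.45 with a standard error of 0.16 (edgeR unadjusted p = 0.0231, adjusted p = 0.624). It was 0.54 without control replicate 2 and 0.34 without control replicate 1, its lowest library (edgeR unadjusted p = 0.0071 and 0.0888). The share of Grik4 in the kainate sum was 1.83% ± 0.246 in control and 2.61% ± 0.0427 in cKO cortex (SD, n = 3 each), which places it among the minor subunits in both groups.

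Grin1 was the member with the smallest p of all. It encodes GluN1, the glycine-binding subunit present in every NMDA receptor, and lies at chr2:25291177-25319187. Its values were 55.7, 63.7 and 46.4 CPM in control and 40.4, 42.3 and 36.3 CPM in cKO libraries. Every cKO library lay below every control library, with 46.4 CPM in control replicate 3 against 42.3 CPM in cKO replicate 2 as the nearest values. The log2 fold change of Grin1 was -0.48 with a standard error of 0.14 and a 95% interval of -0.79 to -0.17 (edgeR unadjusted p = 0.0067, adjusted p = 0.478), which corresponds to 0.717 of the control level. It was negative in all 17 alternative fits, between -0.59 and -0.30. After removal of a trend on transcript length and GC content from each library it passed the threshold, with a log2 fold change of -0.45 and an edgeR adjusted p of 0.0276. That correction also raised the number of all genes that passed from 10 to 183. Control replicate 2 was the highest library for Grin1, and without it the log2 fold change was -0.36 (edgeR adjusted p = 0.194). Grin1 overlaps the antisense gene Grin1os on the opposite strand. Since use of strand in counting is not given in the sources used here, reads from the overlapping part of the 2 genes cannot be told apart.

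Grin2b predominated among the glutamate-binding GluN2 subunits. It made up 82.3% ± 8.84 of the GluN2 sum in control and 84.7% ± 1.65 in cKO cortex, followed by Grin2d, a subunit of early development and interneurons, with 13.8% ± 7.85 and 11.7% ± 0.695 (SD, n = 3 each). Grin2a made up 1.51% ± 0.169 and 1.47% ± 0.327, so that Grin2b exceeded it by 55.4 ± 11.1 times in control and 59.8 ± 13.2 times in cKO cortex (SD, n = 3 each). The level of Grin2b was 45.56, 20.35 and 48.64 TPM in control and 39.86, 44.84 and 44.60 TPM in cKO libraries. Control replicate 2 had less than any other library, whereas the other control libraries lay above all cKO libraries. Accordingly the log2 fold change of Grin2b was 0.06 with all libraries (95% interval -0.48 to 0.60) and -0.20 without control replicate 2 (edgeR unadjusted p = 0.0351, adjusted p = 0.362). Grin2a ranged from 0.47 to 0.84 TPM in control and from 0.63 to 0.88 TPM in cKO libraries, near the lower end of the tested genes. Grin2c, a cerebellar and glial subunit in the adult, and the glycine-binding Grin3b were equally low, with means of 0.98 and 0.81 TPM in control and 1.11 and 1.08 TPM in cKO cortex. Grin3a, which marks juvenile receptors with low calcium permeability, was the more abundant of the GluN3 genes at 3.29 ± 0.867 and 4.39 ± 1.07 TPM (SD, n = 3 each).

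**Figure D3:**
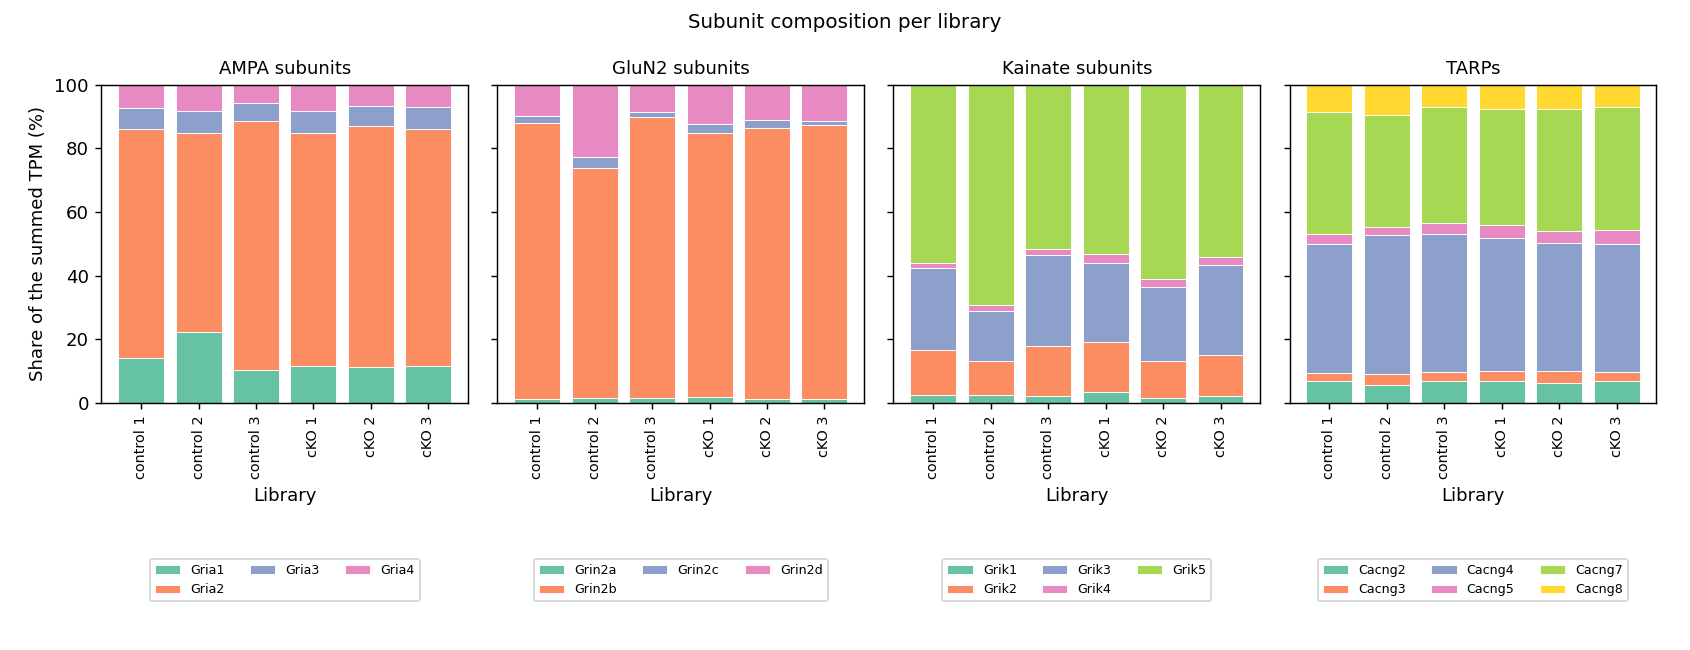
Share of each subunit (%) in the summed TPM of its class for AMPA, GluN2 and kainate subunits and TARPs, 1 stacked bar per library starting at 0. Gria2 makes up 62.57 to 78.06% of the AMPA sum across libraries, with its lowest share, and the highest share of Gria1 (22.28%), in control replicate 2.

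Grid1 had 9.18, 6.69 and 7.48 TPM in control and 8.29, 6.88 and 6.93 TPM in cKO libraries. The groups overlapped, and the log2 fold change was -0.23 (95% interval -0.60 to 0.13).

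The metabotropic receptors were led by Grm2, a presynaptic autoreceptor coupled to inhibitory G proteins, and Grm5, the postsynaptic receptor coupled to phospholipase C. Grm2 had 28.38, 22.57 and 19.39 TPM in control and 31.60, 25.31 and 19.95 TPM in cKO libraries, with wide overlap (log2 fold change -0.02, 95% interval -0.48 to 0.43). Grm5 averaged 16.5 ± 4.58 TPM in control and 20.8 ± 4.05 TPM in cKO cortex (SD, n = 3 each). Grm3, which resembles Grm2 and is also made by astrocytes, was measured at 12.68, 5.12 and 14.39 TPM in control and 14.03, 15.06 and 16.12 TPM in cKO libraries. Control replicate 2 was the lowest library for Grm3, at 0.440 of the mean CPM of the other controls, and the log2 fold change of Grm3 was 0.38 with it and 0.08 without it. That of Grm5 was 0.22 with all libraries, 0.06 without control replicate 2 and 0.08 without cKO replicate 1. The remaining receptors of the inhibitory kind, Grm4, Grm7 and Grm8, were rarer, with control means of 3.22, 2.73 and 1.34 TPM. Each of them was highest in cKO replicate 1, with 6.45 TPM for Grm4, 5.71 TPM for Grm7 and 2.21 TPM for Grm8. Without that library the log2 fold change of Grm4 went from 0.04 to -0.49 and that of Grm7 from 0.35 to -0.06.

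The TARP sums of the groups differed by less than the spread between replicates. Cacng4 (TARP γ-4, abundant in the embryonic brain) made up 42.5% ± 1.80 of the TARP sum in control and 40.7% ± 0.794 in cKO cortex, and Cacng7 36.5% ± 1.55 and 37.8% ± 1.25 (SD, n = 3 each). Cacng4 had 122.63, 114.01 and 108.76 TPM in control and 120.74, 110.67 and 102.21 TPM in cKO libraries, with a log2 fold change on counts of -0.20 (95% interval -0.48 to 0.07). The log2 fold change of Cacng7 was -0.01 with a 95% interval of -0.26 to 0.24. Cacng8 and Cacng2, the TARPs that predominate in the adult forebrain and cerebellum, were lower at 23.3 ± 4.62 and 17.4 ± 2.98 TPM in control and 20.3 ± 2.23 and 18.2 ± 1.81 TPM in cKO cortex (SD, n = 3 each). Cacng3, another forebrain TARP, stood at 8.11 ± 0.680 and 8.86 ± 1.59 TPM. Cacng5 was the TARP whose groups did not overlap, with 15.2, 11.4 and 13.3 CPM in control and 17.4, 15.4 and 16.3 CPM in cKO libraries. Its log2 fold change was 0.30 with a standard error of 0.15 (edgeR unadjusted p = 0.0743, adjusted p = 0.795), and 0.20 without control replicate 2, its lowest library.

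Of the Neto proteins, Neto2 held 83.5% ± 1.66 of the sum in control and 85.3% ± 1.89 in cKO cortex (SD, n = 3 each). It had 109.45, 70.10 and 134.33 TPM in control and 139.24, 122.98 and 142.69 TPM in cKO libraries, so cKO replicate 2 lay inside the control range (log2 fold change 0.25, 95% interval -0.14 to 0.63). Without control replicate 2, its lowest library, the log2 fold change of Neto2 was 0.07, and without control replicate 3 it was 0.41. Neto1 stood at 20.2 ± 4.68 and 23.4 ± 4.65 TPM (SD, n = 3 each).

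Cornichons were represented mainly by Cnih2, a partner that slows the closing of AMPA receptors, with 307.78, 391.11 and 230.04 TPM in control and 240.04, 280.75 and 240.81 TPM in cKO libraries. Control replicate 2 was the highest library and control replicate 3 the lowest, so the cKO libraries fell inside the control range. The log2 fold change of Cnih2 was -0.47 with a standard error of 0.23 (edgeR unadjusted p = 0.0685, adjusted p = 0.789). It was -0.16 without control replicate 2 and -0.68 without control replicate 3 (edgeR adjusted p = 0.665 and 0.208). Cnih3 had 36.38, 34.64 and 38.29 TPM in control and 45.16, 46.07 and 46.83 TPM in cKO libraries, with no overlap. On counts its log2 fold change was 0.19 with a 95% interval of -0.04 to 0.41 (edgeR unadjusted p = 0.0888, adjusted p = 0.796). The ratio of Cnih2 to Cnih3 TPM was 8.46, 11.29 and 6.008 in control and 5.315, 6.094 and 5.142 in cKO libraries. These ratios overlapped between the groups, with cKO replicate 2 above control replicate 3.

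The position of control replicate 2 differed from member to member. Among the 33 tested members it was the lowest of the 6 libraries for 13 and the highest for 9, beside 33.9% and 33.6% of all genes tested. Relative to the mean CPM of the other control libraries it held 0.499 of Grin2b, 0.574 of Gria2 and 0.440 of Grm3. By the same measure it held 1.25 of Grin1, 1.71 of Cnih2 and 2.31 of Grin3b (35 counts against 13 and 14). Across the 33 members this log2 ratio correlated with log2 transcript length (Pearson r = -0.617) and with the GC content of the transcript (r = 0.723). Over the 13318 genes tested with a transcript model the values were -0.600 and 0.536. The points share their libraries, and length and GC content are related to each other, so these are descriptions. The log2 fold change of cKO over control correlated across the members with length (r = 0.314) and GC content (r = -0.526) as well, where all 13318 genes gave 0.245 and -0.171. Of the 33 members, 15 (45.5%) had transcripts in the 2 longest of 10 equal length groups of tested genes. The part of this library's profile in the fold changes of single members was tested only as far as the fits without it and with the length and GC correction go.

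**Figure D4:**
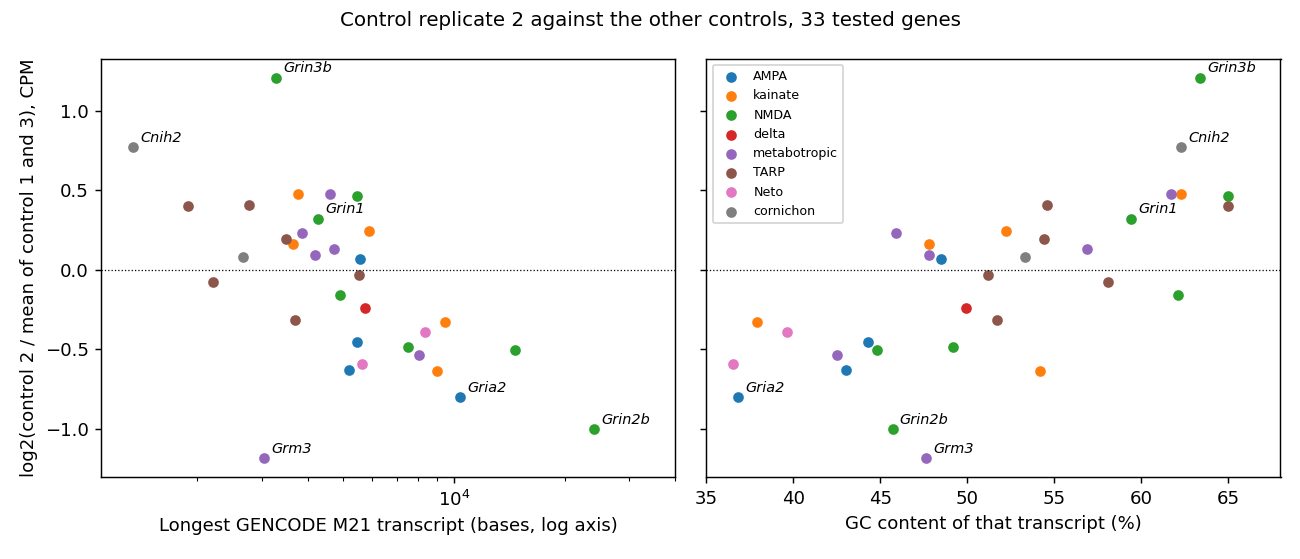
Log2 ratio of control replicate 2 to the mean of control replicates 1 and 3 in CPM (vertical axis) against the length in bases (log axis, left) and the GC content in % (right) of the longest annotated transcript, 1 point for each of 33 tested members, coloured by receptor class. Grin2b and Gria2, with long transcripts, lie below 0, and Cnih2 and Grin3b lie above it. The lowest point is Grm3, with a transcript of 3049 bases, and the highest is Grin3b, with 3283 bases. Pearson r is -0.617 with log2 length and 0.723 with GC content.

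Replicate 1 of the cKO group was the other library that set several values. It was the highest of the 6 libraries for 13 of 33 members, beside 17.8% of all genes tested, among them Gria4, Grik1, Grik2, Grik4, Grin2a, Grin3a, Cacng5, Neto1 and the metabotropic genes Grm2, Grm4, Grm5, Grm7 and Grm8. Transcripts of interneurons were also highest there: 10 interneuron genes, among them Gad1, Gad2, Lhx6 and Sst, summed to 1491 TPM in this library, 1012 and 1134 TPM in the other cKO libraries and 923.6 to 1006 TPM in control libraries. All 10 were detected in every library and 0 passed the test, with a median log2 fold change of -0.052. Their part in the values of the receptor genes was not tested. The sum of 9 excitatory neuron genes was 1834 to 2598 TPM in control and 2103 to 2378 TPM in cKO libraries. For 7 striatal genes it was 123.5 to 148.1 and 149.4 to 167.6 TPM, for 5 endothelial genes 160.1 to 170.6 and 178.9 to 228.8 TPM, and for 7 microglial genes 57.94 to 73.19 and 75.18 to 80.94 TPM. These 3 sums did not overlap between the groups on the TPM scale. Nor did the interneuron sums, the nearest values being 1012 TPM in cKO against 1006 TPM in control libraries. On counts the median log2 fold change was -0.10 for the striatal, 0.229 for the endothelial and 0.062 for the microglial genes, and 0 genes of these lists passed the test.

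To place the receptors among the proteins they work with, 5 further lists were examined, and 0 genes of any of them passed the test. Of 21 tested genes for other AMPA receptor auxiliary and extracellular partners, 17 had a log2 fold change above 0 (median 0.124). Over all genes tested, 6860 of 13570 lay above 0 (median 0.003). Gsg1l, an AMPA receptor auxiliary protein that slows recovery from desensitization, had a log2 fold change of 0.36 (edgeR unadjusted p = 0.0306, adjusted p = 0.672). Cbln1, a secreted cerebellin that links presynaptic neurexins to delta receptors, had -0.55 (edgeR unadjusted p = 0.0121, adjusted p = 0.555). Of 22 tested postsynaptic scaffold genes, Dlg4, which encodes PSD-95, had a log2 fold change of -0.25 (edgeR unadjusted p = 0.0445, adjusted p = 0.731), while the median of the list was 0.087. Rgs8, a brake on G protein signalling, was the gene with the smallest p among 13 genes of metabotropic signalling. Its log2 fold change was -0.49 (edgeR unadjusted p = 0.0075, adjusted p = 0.490), with 37.9, 39.4 and 44.0 CPM in control and 32.5, 23.5 and 30.3 CPM in cKO libraries. Kif17, the kinesin known to carry Grin2b-containing vesicles, was near the floor, with at most 0.59 CPM in control and 0.96 CPM in cKO libraries, where 3 counts equal 0.178 to 0.199 CPM. Of 10 genes for RNA editing and binding, including Adarb1, whose enzyme edits Gria2 mRNA, 0 had an unadjusted p under 0.05.

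Precision differed widely between members. The 95% intervals of the log2 fold change ran from narrow ones such as that of Gria1, from -0.24 to 0.20, to wide ones such as that of the scarce Grin3b, from -0.75 to 0.95. The common biological coefficient of variation over all genes was 0.147.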

How the data were processed

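RNA from E18.5 cortices was sequenced as mRNA libraries on the DNBSEQ platform, 3 cKO and 3 control, grouped by the submitters' labels. The authors deposited 1 table with estimated counts, TPM and FPKM for 17348 genes in each library, of which 18 columns were used. The deposited estimated counts carry no scaling between libraries, the authors' TPM and FPKM are scaled by transcript length and library size, and 89.2 to 89.5% of counts were whole. The submitters' processing notes name HISAT2 2.2.1, Bowtie2 2.4.5, RSEM 1.3.1 and GRCm38/mm10, without roles. The table's gene annotation and any use of strand are not given in the sources used here.

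Estimated counts were rounded, filtered with filterByExpr, scaled by TMM and tested in R 4.3.3 with the quasi-likelihood method of edgeR 4.0.16, without pairing, and p-values were adjusted after Benjamini and Hochberg over all 13570 genes tested. TPM values served for levels and shares within a library. Standard errors were back-calculated from F and the fold change, and errors of levels are SD. The floor of 3 counts covers counting error only. Permutation tests were exact and two-sided. Where nothing says that libraries of a group came from separate embryos beyond their description as replicates, p-values measure the spread between these libraries. No pair of libraries within a group was a duplicate (chi-square per degree of freedom 3.52 to 65.4). The fitting script was tested on simulated counts.

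The members and the gene lists were chosen with earlier results of these data known. All 34 members are named. Values in every library are given for members with an unadjusted p under 0.05, for the most abundant member of each class and for the member that did not pass the filter, members whose groups do not overlap are named, and from each other list up to 4 genes with the smallest unadjusted p below 0.05. Values in every library of Grm3 and Cnih3 were added after they were seen. Those of Cacng5 and Rgs8 are also given outside this rule. Gene spans and promoters are from RefSeq on GRCm38.p6, and transcript lengths and GC content from GENCODE M21 (16780 genes, 96.7%, including all 34 members). The alternatives were RLE size factors, DESeq2 1.42.0, other filters on low counts, the replicate number as a block, each library left out, TMM without ribosomal protein and translation factor genes, X and Y genes left out, a length and GC correction (mgcv 1.9.3) with and without the block, limma 3.58.1 on log2(TPM + 1) and log2(FPKM + 1), and an adjusted p under 0.1. Plots used Python 3.11.15 and matplotlib 3.10.9.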

Additional observations from a re-analysis of the deposited data

How the results depend on the processing

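The absence of members past the threshold held in all alternatives except the length and GC correction, alone or with the replicate block, under each of which 1 member passed (Grin1, log2 fold change -0.45 in both, edgeR adjusted p = 0.0276 and 0.0339). Over all genes, 99 passed with DESeq2, 6 without X and Y genes, 183 with the length and GC correction, 170 with that correction and the replicate block, 18 at an adjusted p under 0.1, and 8 to 122 when a library was left out (122 without control replicate 2 and 19 without control replicate 3). The number of members with an unadjusted p under 0.05, 4 in the report, was 9 with the correction, 11 with the correction and the block, and 1 to 9 when a library was left out. With the replicate number as a block it was 5, since Cnih2 joined the other 4 (edgeR unadjusted p = 0.0307), and 11 of all genes but 0 members passed the threshold, so the block changed no call among the members. Same-numbered libraries deviated together with correlations of 0.088, 0.061 and 0.230. Each library correlated best with its own number, though control replicate 2 gave 0.059 with cKO replicate 1, close to its 0.061 with cKO replicate 2. This is a hint from the data and not from the design. The series' description names 3 sequencing batches without saying which libraries they hold.

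The class medians minus that of all genes kept their sign in most alternatives. The NMDA value was -0.036 on log2(TPM + 1) and -0.024 on log2(FPKM + 1), and the kainate value was -0.065 to 0.178 when a library was left out. The cause was not tested for any of these. The direction held in every alternative for 16 of 33 members. With the length and GC correction the log2 fold change was -0.13 for Grik2, -0.15 for Grin2a, -0.10 for Grin2b, 0.0288 for Cacng3, 0.0638 for Cacng7 and -0.0241 for Neto1, and with the block as well it was -0.13, -0.16, -0.10, 0.0282, 0.0787 and -0.0309 for the same genes. On log2(TPM + 1), where the median of all genes was 0.141, it was 0.12 for Gria1, 0.057 for Grik5, 0.12 for Grm2, 0.0717 for Cacng2, 0.10 for Cacng3 and 0.0599 for Cacng7, and on log2(FPKM + 1) it was 0.0175 for Gria1, -0.0031 for Grik2, 0.0144 for Grm2 and 0.0074 for Cacng3. Without a filter on low counts that of Grik2 was -0.0085, and with the block alone that of Grm4 was -0.0194. When a library was left out, the log2 fold change lay between -0.0494 and 0.0015 for Gria1, -0.19 and 0.33 for Grik1, -0.14 and 0.12 for Grik2, -0.0677 and 0.23 for Grik3, -0.20 and 0.0969 for Grik5, -0.13 and 0.17 for Grin2a, -0.20 and 0.23 for Grin2b, -0.0445 and 0.31 for Grin2c, -0.0784 and 0.22 for Grin2d, -0.14 and 0.64 for Grin3b, -0.20 and 0.13 for Grm2, -0.49 and 0.27 for Grm4, -0.064 and 0.64 for Grm7, -0.16 and 0.11 for Cacng3, -0.0693 and 0.0807 for Cacng7, and -0.0397 and 0.25 for Neto1. Genes near the floor of 0.178 to 0.199 CPM, such as Grm6, could not be compared at this depth.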
